A study of Mus musculus with 9 samples.

Results

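Homeobox genes encode transcription factors that bind DNA through a homeodomain, and the families outside the Hox clusters help set the identity of brain regions, sense organs, muscle, limb and gut. The genes described here were all protein-coding mouse genes whose symbols belong to the families Dlx, Irx, Lhx, Msx, Pax, Cdx, Otx, Meis, Pbx, Emx, Gsx and Nkx, or to the sine oculis family (such as Six4 and Six5). They were chosen by symbol alone and numbered 68 of 21900 protein-coding genes, in 13 families. The label fits the families as a whole, although some Pax proteins, such as those of Pax1 and Pax9, bind DNA through the paired domain and lack a homeodomain. N6-methyladenosine (m6A) is a methyl mark that the Mettl3 complex places on mRNA. In embryonic stem cells m6A is known for its part in the turnover of transcripts of pluripotency and lineage regulators, and most members are best known from later embryonic tissues.

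The study compared m6A in mouse embryonic stem cells (mESCs) of 3 genotypes, wild-type, Mettl3 knockout and Zc3h13 knockout, with 2 immunoprecipitations and 1 input sample each. Peaks of both wild-type immunoprecipitations were used, and the remaining 7 samples were not used here. The background of all cells is labelled Rosa26:CRE, Bir ligase, and the cells grew on gelatin in serum with LIF. RNA selected on oligo-dT was enriched with a rabbit antibody against m6A, so each peak marks a stretch of mRNA fragments that were enriched over input. The labels do not say whether the 2 replicates came from separate cultures.

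Replicate 1 had 22531 peaks and replicate 2 had 5040, and depth is unknown because no read counts come with the lists. Each peak carries a fold enrichment over input and a −log10 q, where q is the p-value adjusted over the genome by the peak caller MACS2; a higher −log10 q means stronger statistical evidence and grows with the number of reads. The median −log10 q of a peak was 28.9 in replicate 1 and 7.54 in replicate 2. The peaks of replicate 1 carry a sample name (H4) that is not wild type, whereas those of replicate 2 name wild type. The group of replicate 1 was taken from its sample label, and the files do not settle which cells the name H4 stands for. Of 8 genes that mark embryonic stem cells, Sox2, Nanog, Klf4, Zfp42, Esrrb and Sall4 (75%) had a peak in replicate 1. Pou5f1 and Tfcp2l1 had none, and 0 of the 8 had one in replicate 2. Over all protein-coding genes the shares were 41.3% in replicate 1 and 16.9% in replicate 2. A peak is not a measure of expression, so these counts do not check the cell type. Absence of a peak likewise leaves 3 cases that cannot be told apart here, a silent gene, an unmethylated transcript and too few reads. With 1 group of 2 samples, no test between samples could be made.

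Of the 68 homeobox genes, 42 (61.8%) had a peak within 500 bp of the gene body in replicate 1, against 41.3% of all protein-coding genes. In replicate 2, 18 (26.5%) had a peak, against 16.9% of all protein-coding genes. Every one of these 18 also had a peak in replicate 1, as did 3531 of the 3704 protein-coding genes with a peak in replicate 2. So 18 (26.5%) were in both lists, against 16.1% of all protein-coding genes. In each of the 18 genes, at least 1 peak of replicate 1 overlapped a peak of replicate 2, which was not counted over all genes. The other 24 genes with a peak in replicate 1 had none in replicate 2, and 26 genes had no peak in either list. Of all 21900 protein-coding genes, 9038 had a peak in replicate 1 and 3531 in both lists. Starting from the genes marked in replicate 1, 42.9% of the homeobox genes and 39.1% of all protein-coding genes were marked again in replicate 2. The counts depended on the length of the lists, since with replicate 1 cut to its 5040 peaks of highest −log10 q, 14 homeobox genes (20.6%) were in replicate 1 and 10 (14.7%) in both. Over all protein-coding genes the shares under this cut were 17.3% and 10.7%. The family was chosen with results of these data known, so these shares are descriptions and were not tested.

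The families ranged from Pax and Emx, with no gene in both lists, to families such as Cdx and Msx, where every gene with a peak was in both. All 13 families had at least 1 gene with a peak in replicate 1, and 11 had at least 1 gene with a peak in both. Nkx was the largest family and held 4 of the 18 genes in both lists, and Cdx, Dlx and Msx held 2 each. Gsx, Lhx, Otx, Irx and Meis held 1 each, and the remaining 3 genes belonged to the other families. Of 9 Pax genes, 5 had a peak in replicate 1 and 0 in replicate 2. Of 8 Lhx genes, 4 had a peak in replicate 1 and only Lhx6 had one in both. With families of 2 to 14 genes, a single gene moves these counts much, and the differences between families were not tested.

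**Figure D1:**
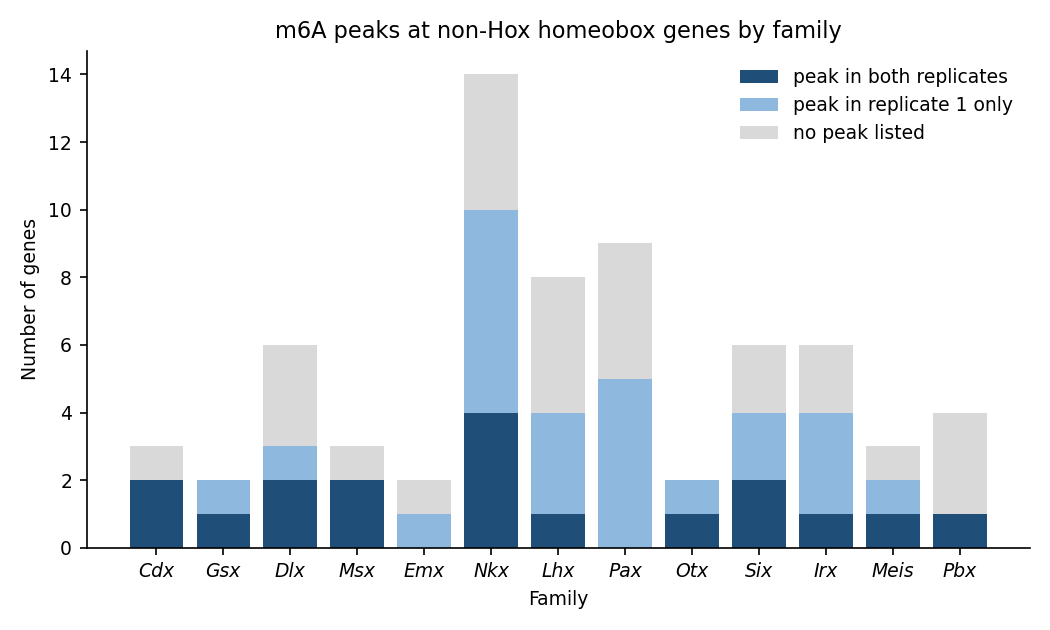
Number of genes in each of the 13 families (bars, y axis) marked in both replicates (dark), in replicate 1 only (light) or in neither (grey). Nkx holds 4 of the 18 genes in both lists, and the 5 Pax genes with a peak all lie in the light segment.

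Among the ParaHox genes of the Cdx and Gsx families, the main peak of Cdx1 and of Cdx2 had a higher −log10 q than any Gsx peak in the same replicate. Cdx1, a posterior patterning factor on chromosome 18, had 3 peaks in replicate 1 and 2 in replicate 2. Its highest −log10 q, 176.1 in replicate 1 against 17.3 in replicate 2, stood at the same peak, and both summits fell on the same base. That peak was enriched 5.75-fold and 9.85-fold over input. Cdx2, the trophectoderm and intestine regulator, had 2 peaks in each replicate. The larger one, on chromosome 5 from 147301070 to 147302057 in replicate 1, was enriched 8.81-fold in replicate 1 and 10.02-fold in replicate 2. Its summit lay 456 bp from the 3′ end of the gene in replicate 1 and 455 bp in replicate 2. The smaller one lay 501 bp from the 5′ end, with a −log10 q of 4.81 and 4.88. Both ends of the Cdx2 gene were therefore marked in both replicates. Gsx1, a forebrain and hindbrain factor 110.0 kb from Cdx2, had 1 peak in each replicate with a −log10 q of 5.02 and 4.88. That peak ranked 22080 of 22531 in replicate 1, the lowest place of a gene's best peak among the 18 genes in both lists. Gsx2 had 2 peaks in replicate 1, with a −log10 q of at most 20.3, and none in replicate 2. Cdx4 had no peak.

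The Dlx genes, which act in the forebrain, branchial arches and limb, lie in neighbouring pairs, and the pairs differed. Dlx3 and Dlx4, 15.2 kb apart on chromosome 11, both had a peak in both replicates. The main peak of Dlx3 was enriched 20.9-fold in replicate 1 and 7.75-fold in replicate 2, with −log10 q of 120.2 and 8.03. The shared peak of Dlx4 was enriched 9.89-fold and 6.90-fold, and its summits coincided. In replicate 1 this peak also lay within 500 bp of the antisense gene Dlx4os, and in replicate 2 it did not. Dlx2 had 2 peaks in replicate 1 only, with a −log10 q of at most 12.8, and its neighbour Dlx1, 9.4 kb away, had none. Dlx5 and Dlx6, 9.8 kb apart, had no peak. Peaks found in both lists thus came from 1 of the 3 pairs.

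Msx1 and Msx2, targets of BMP signals in craniofacial and limb tissue, had some of the strongest peaks of the whole group. The main Msx1 peak, on chromosome 5 from 37820814 to 37821828, was enriched 33.3-fold in replicate 1, the highest of any homeobox gene here, and 9.04-fold in replicate 2. Its −log10 q was 121.2 and 11.4, and its summits lay 855 and 860 bp from the 3′ end. The only Msx2 peak, on chromosome 13 from 53468040 to 53468718 in replicate 1, was enriched 9.74-fold and 11.1-fold. Its −log10 q values were 249.9 and 22.8, and its summits were 7 bp apart. Msx2 therefore had the lower enrichment and the higher −log10 q of the pair in replicate 1. The shared Msx1 peak also lies at Msx1os and that of Msx2 at Gm33763, and the lists give no strand, so the RNAs cannot be told apart. Msx3 had no peak. Emx2, a cortical patterning gene, had 1 weak peak in replicate 1 near its 5′ end, with a −log10 q of 5.41, which also lies at Emx2os, and Emx1 had none.

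**Figure D2:**
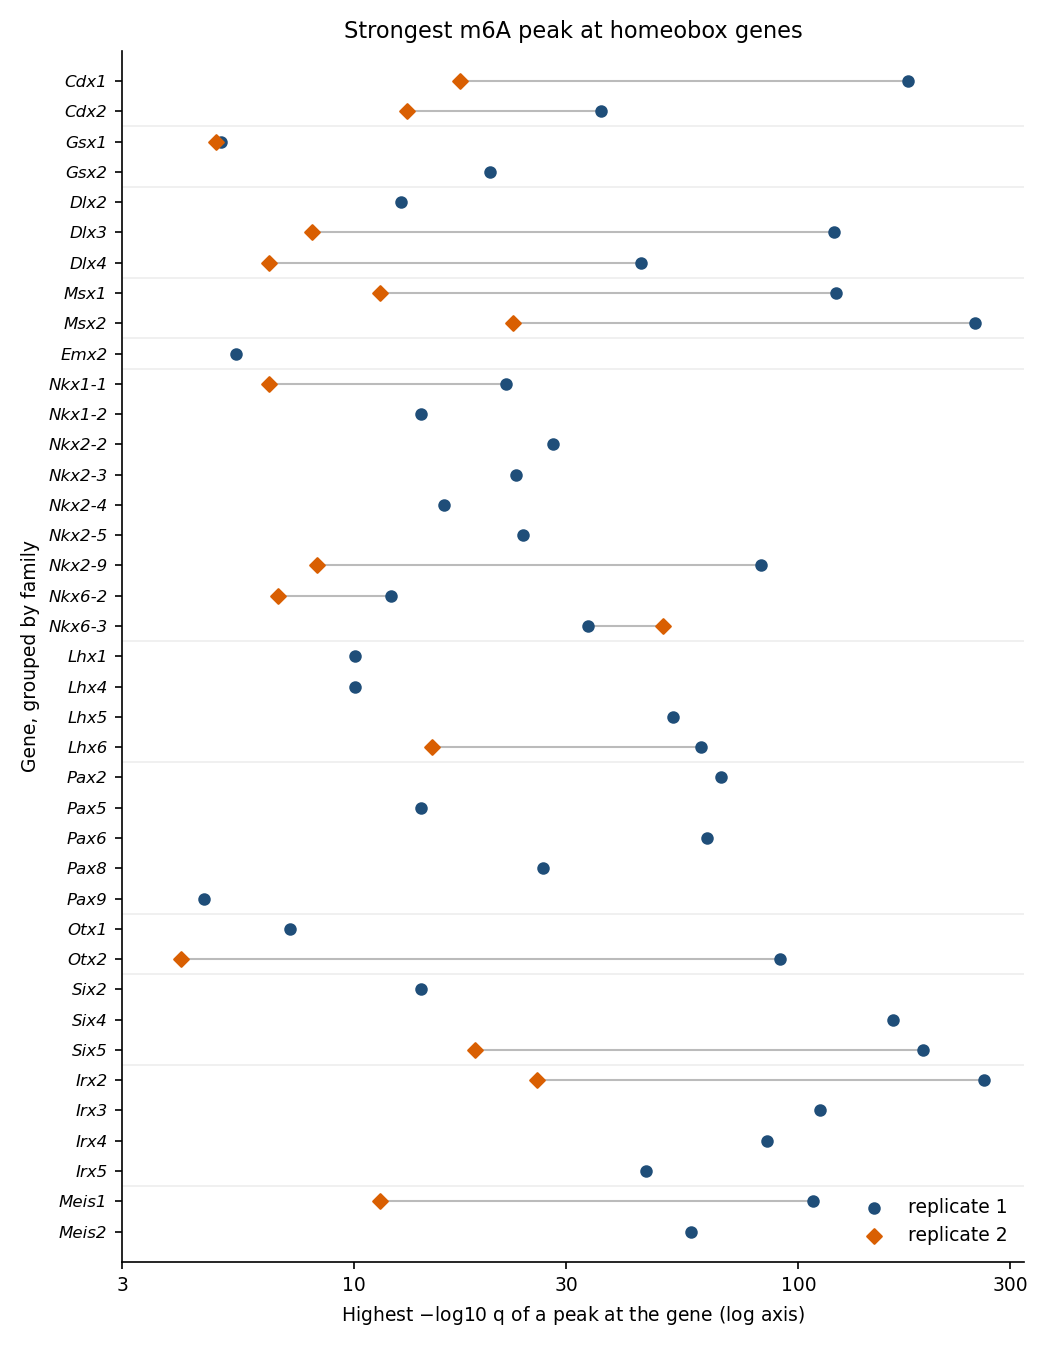
Highest −log10 q of a peak (x axis, log scale) for 39 of the 42 homeobox genes with a peak in replicate 1 (circles), with the value in replicate 2 (diamonds) joined by a line where there was one. Irx2, Msx2 and Six5 lie farthest right, and Nkx6-3 is the 1 gene whose replicate 2 value, 49.6, lies above its replicate 1 value, 33.7.

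Nkx genes regulate the ventral neural tube, heart, thyroid, pancreas and stomach, and Nkx6-3, known from the stomach, was the 1 gene with a higher −log10 q in replicate 2 than in replicate 1. Nkx6-3, on chromosome 8 from 23153271 to 23158948, had 3 peaks in each replicate, and all 3 overlapped between the lists. The peak at its lower coordinate was enriched 10.9-fold in replicate 1 and 26.03-fold in replicate 2. The peak at its higher coordinate was enriched 9.07-fold and 25.1-fold. These were the highest fold enrichments of any member in replicate 2. Its highest −log10 q in replicate 2, 49.6 at the lower peak, ranked 5 of 5040 peaks. Its highest in replicate 1, 33.7 at the higher peak, ranked 9997 of 22531. Among the 18 homeobox genes in both lists, it stood alone in this, against 32 (0.906%) of all 3531 protein-coding genes in both lists. The middle peak of Nkx6-3 went the other way, falling from 8.92-fold in replicate 1 to 6.75-fold in replicate 2.

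Nkx1-1, Nkx2-9 and Nkx6-2 were the other Nkx genes in both lists. Nkx1-1 had a peak at each end of the gene in both replicates, and the 1 near its 3′ end was enriched 10.4-fold and 4.66-fold. Its −log10 q was 22.0 in replicate 1 and only 2.48 in replicate 2, where it ranked 4853 of 5040 peaks. Nkx2-9, a midline gene, had 3 peaks in replicate 1 and 1 in replicate 2, and the shared peak had a −log10 q of 82.2 and 8.25 with both summits on the same base. All peaks of Nkx2-9 also lie within 500 bp of Gm26973. Nkx6-2, which acts in spinal cord progenitors and glia, had 2 weak neighbouring peaks near its 5′ end in replicate 1, enriched 2.23-fold and 3.24-fold. In replicate 2 a single peak of 559 bp overlapped both and was enriched 7.18-fold. All Nkx6-2 peaks also lie at another gene, Gm33031 near the 5′ end and Inpp5a for a second replicate 2 peak near the 3′ end. Among the Nkx genes with a peak in replicate 1 only, Nkx2-2, a ventral neural tube gene, had 1 with a −log10 q of 28.1 that also lies at Nkx2-2os. The heart factor Nkx2-5 and Nkx1-2, Nkx2-3 and Nkx2-4 had values below this.

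LIM-homeodomain proteins combine a homeodomain with LIM zinc fingers and specify neurons. Lhx6, an interneuron regulator, had a peak of 1896 bp in replicate 1, the widest of all peaks at the homeobox genes, where replicate 2 listed 2 separate peaks. It was enriched 6.46-fold, and the 2 replicate 2 peaks 10.5-fold and 11.2-fold, with all summits within 1741 bp of the 3′ end. Lhx5, a forebrain gene, had 1 peak in replicate 1, enriched 18.1-fold at a −log10 q of 52.2, and none in replicate 2. Lhx1 and Lhx4 each had 1 replicate 1 peak with the same fold enrichment, 6.48, and the same −log10 q, 10.01, and 186 peaks of that list carried this pair of values. Lhx2, Lhx3, Lhx8 and Lhx9 had no peak.

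Among the Pax genes the peaks were numerous in Pax6 and absent from replicate 2 throughout. Pax6, the eye and forebrain regulator, had 7 peaks in replicate 1, more than any other homeobox gene here, spread along the gene body on chromosome 2. Their fold enrichment ran from 4.85 to 10.6 and their −log10 q from 13.1 to 62.2. Pax2, a kidney and midbrain gene, had 1 peak 1720 bp from its 3′ end, enriched 21.7-fold at a −log10 q of 66.9. That peak also lies at 1700039E22Rik. Pax5, Pax8 and Pax9 had 1 replicate 1 peak each, with a −log10 q of 14.1, 26.6 and 4.58. Pax1, Pax3, Pax4 and Pax7 had no peak.

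Otx2, a regulator of the epiblast and anterior brain that is known to be active as stem cells leave the naive state, combined a low fold enrichment with a high −log10 q. Its main peak, on chromosome 14 from 48658022 to 48659444 in replicate 1, was enriched only 2.99-fold at a −log10 q of 90.8. In replicate 2 it had 2.71 and 4.08, the lowest −log10 q of a gene's best peak among the 18 genes of that list, and its summits were 1 bp apart. Otx1 had 1 weak peak in replicate 1, with a −log10 q of 7.17.

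The sine oculis homologues act with Eya cofactors in muscle, kidney and sense organs, and Six5 and Six4 had the family's highest −log10 q values in replicate 1. Six5, on chromosome 7 from 19094544 to 19098549, had 3 peaks in replicate 1 and 2 in replicate 2. The shared peak nearer its 3′ end was enriched 18.3-fold and 10.05-fold, with −log10 q of 191.0 and 15.4. The other shared peak was enriched 15.6-fold and 13.3-fold, with −log10 q of 111.2 and 18.7, so the order of the 2 peaks reversed between replicates. The summits of both shared Six5 peaks coincided between the replicates. Six4 had 3 peaks in replicate 1, with a −log10 q of 163.6, 137.3 and 73.9, and none in replicate 2. Six4 thus had the highest −log10 q of the genes in replicate 1 only. Six2 had 2 peaks in replicate 1 with a −log10 q of at most 14.1.

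Iroquois proteins carry a TALE homeodomain and pattern the neural plate and heart, and they held the peak of highest −log10 q among all 68 genes. Irx2, on chromosome 13 from 72624430 to 72634196, had 4 peaks in replicate 1 and 3 in replicate 2, all 3 overlapping. The strongest, from 72631043 to 72631960 in replicate 1, was enriched 16.8-fold and 15.9-fold. Its −log10 q of 262.1 ranked 48 of 22531 in replicate 1, and its 25.8 ranked 101 of 5040 in replicate 2, so it stood near the top of both lists. Irx4, on the same chromosome, had a peak enriched 18.9-fold at a −log10 q of 84.8 in replicate 1, and no peak in replicate 2. In the other Irx cluster, on chromosome 8, Irx3 reached 16.6-fold at a −log10 q of 111.7, and Irx5 reached 13.8-fold at 45.3. Neither had a peak in replicate 2. Each cluster therefore had 2 genes with a peak in replicate 1 and 1 gene without, Irx1 and Irx6.

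Meis and Pbx proteins are TALE partners that bind DNA together with Hox proteins, and Meis1 and Meis2 had their strongest peaks near the 3′ end of long gene bodies. Meis1, on chromosome 11 from 18880428 to 19019651, had 1 peak in each replicate. It was enriched 28.0-fold and 8.92-fold, and the summits lay 1285 and 1308 bp from the 3′ end of a gene body of 139224 bp. Meis2 had 2 peaks in replicate 1 only, and the stronger, 3165 bp from the 3′ end, had a −log10 q of 57.2. The peak of Meis1 found in both lists therefore lay in a short stretch at 1 end of a long gene. Meis3 had no peak.

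Overlap between the replicates depended on the length of the lists. Of the 29 peaks of replicate 2 at these genes, 27 (93.1%, 95% exact binomial interval 77.2% to 99.2%, counting error only) overlapped a peak of replicate 1. One of the others lay at Nkx6-2, which also had a shared peak. In the other direction, 27 of 80 peaks in replicate 1 (33.8%, 23.6% to 45.2%) had such a partner. Over all peaks at protein-coding genes these shares were 92.1% and 20.5%. With replicate 1 limited to as many peaks as replicate 2, 48.3% of the replicate 2 peaks at homeobox genes were shared, against 55.6% over all protein-coding genes, and 70.0% of the replicate 1 peaks, against 49.3%. In the 28 overlapping pairs the summits were a median of 7.5 bp apart, and 16 pairs (57.1%) were within 10 bp, against a median of 10 bp and 51.4% over all 4684 overlapping pairs. Peaks at 1 gene share their library, so they are not replicates.

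Fold enrichment moved in both directions between the replicates. It was higher in replicate 2 in 14 of the 28 pairs, against 51.1% of all pairs. A peak can enter more than 1 pair: both Nkx6-2 pairs hold the same replicate 2 peak, and both Lhx6 pairs the same replicate 1 peak. In 5 pairs, most of them at Nkx6-2 and Nkx6-3, the replicate 2 value was over 2 times that of replicate 1. In 6 pairs, among them those at Dlx3, Irx2, Meis1, Msx1 and Nkx1-1, it was under 0.5 times. The pair with the largest fall was that of Msx1, at 0.271 times. Each list was called on its own, so how far the difference between the libraries enters these ratios was not tested.

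**Figure D3:**
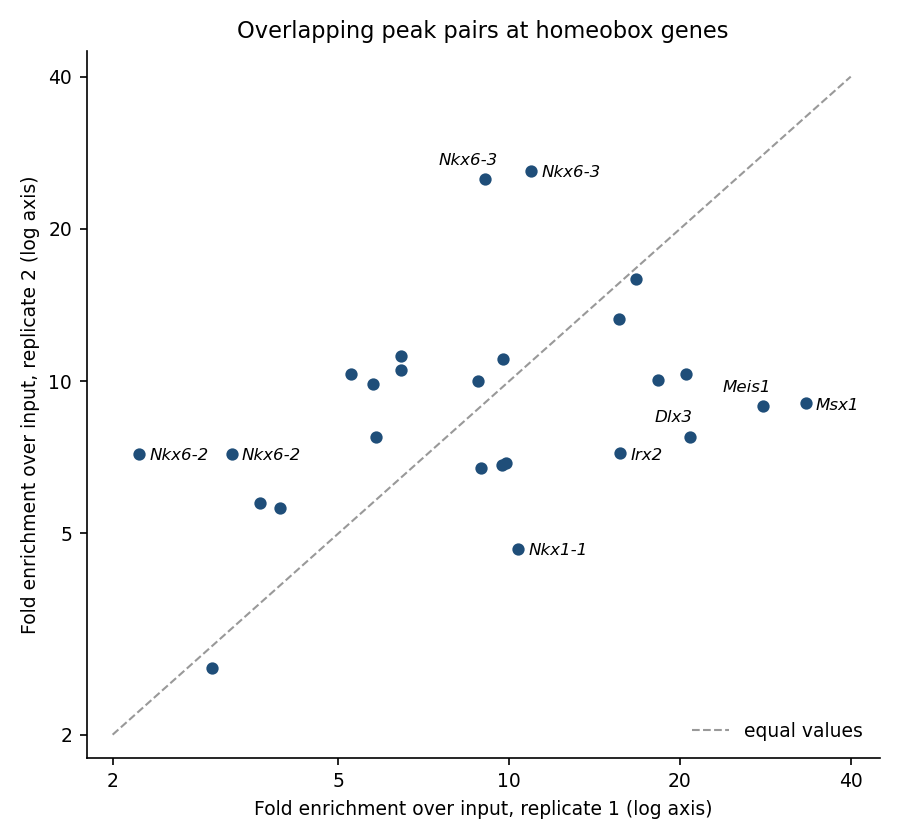
Fold enrichment over input of 26 of the 28 overlapping peak pairs at homeobox genes in replicate 1 (x axis) and replicate 2 (y axis), both on log scales; the dashed line marks equal values, and pairs that differ by over 2 times are labelled. Of the points, 13 lie above the line, with Nkx6-2 and Nkx6-3 farthest above and Msx1 and Meis1 farthest below.

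Homeobox genes with a −log10 q of at least 100 in replicate 1 were found in replicate 2 most often, as over all genes, with exceptions on both sides. Below 100 the share rose at each step over all genes but not among the homeobox genes, whose ranges hold few genes. Of the 9 homeobox genes whose highest −log10 q in replicate 1 was at least 100, 7 were in replicate 2, against 70.7% of all protein-coding genes in that range. The 2 absent ones were Six4 and Irx3. Of the 9 genes from 50 to 100, 4 were in replicate 2, against 47.5% of all, and Lhx5, Pax2, Pax6, Irx4 and Meis2 were absent. Of the 8 from 25 to 50, 4 were, against 26.5% of all. Of the 12 from 10 to 25, 2 were, Nkx1-1 and Nkx6-2, against 12.5% of all. Below 10, Gsx1 was 1 of 4, against 8.85% of all. The 14 genes in replicate 1 only that are not among the 10 with the highest values had a −log10 q between 4.58 and 26.6.

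Over the 42 genes with a peak, the median fold enrichment of the homeobox genes lay above that of all genes in replicate 1 and their median −log10 q below it. The median over genes of the highest fold enrichment was 9.73, against 6.45 over all protein-coding genes with a peak, and that of the highest −log10 q was 38.3 against 52.3. In replicate 2 both medians were above those of all genes, with 8.98 against 6.71 for the fold enrichment and 11.4 against 8.11 for −log10 q. Most genes had few peaks, with 1 peak in 18 of 42 genes of replicate 1 (42.9%, against 42.6% of all) and 3 or more in 9 (21.4%, against 32.5%). The replicates differed here. In replicate 2, 9 of 18 genes had 1 peak (50.0%, against 70.9%) and 2 had 3 or more (11.1%, against 8.48%). The homeobox gene bodies were shorter, with a median of 6778 bp against 17146 bp for all protein-coding genes, and among the homeobox genes the median was 5763 bp for those in both lists, 8566 bp for those in replicate 1 only and 7522.5 bp for those with no peak. Several weak peaks had exactly the same values. Nkx1-2, Pax5 and Six2 each had a peak enriched 8.10-fold at a −log10 q of 14.1, a pair of values which stood on 112 peaks of the list.

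The strand of the gene was known for 50 of the 68 genes, from the RefSeq start sites of GRCm38, and 32 of these had a peak in replicate 1. Summits lay more often in the part of the gene nearer its 3′ end. In replicate 1, 39 of 58 summits inside these gene bodies (67.2%) were nearer the 3′ end, against 69.3% over all protein-coding genes of known strand. In replicate 2, 16 of 19 (84.2%) were, against 78.4%. Within 1000 bp of the 3′ end lay 18 of 59 summits of replicate 1 (30.5%, against 14.6%) and 9 of 19 of replicate 2 (47.4%, against 24.5%). Within 1000 bp of the 5′ end lay 9 of 59 (15.3%, against 12.2%) and 3 of 19 (15.8%, against 9.44%). Within 1000 bp of either end, whatever the strand, lay 37 of all 80 summits of replicate 1 (46.3%, against 25.5%) and 17 of 29 of replicate 2 (58.6%, against 32.5%). These distances include introns, since exons were not used here, and the part that the shorter gene bodies play in the contrast with all genes was not tested.

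**Figure D4:**
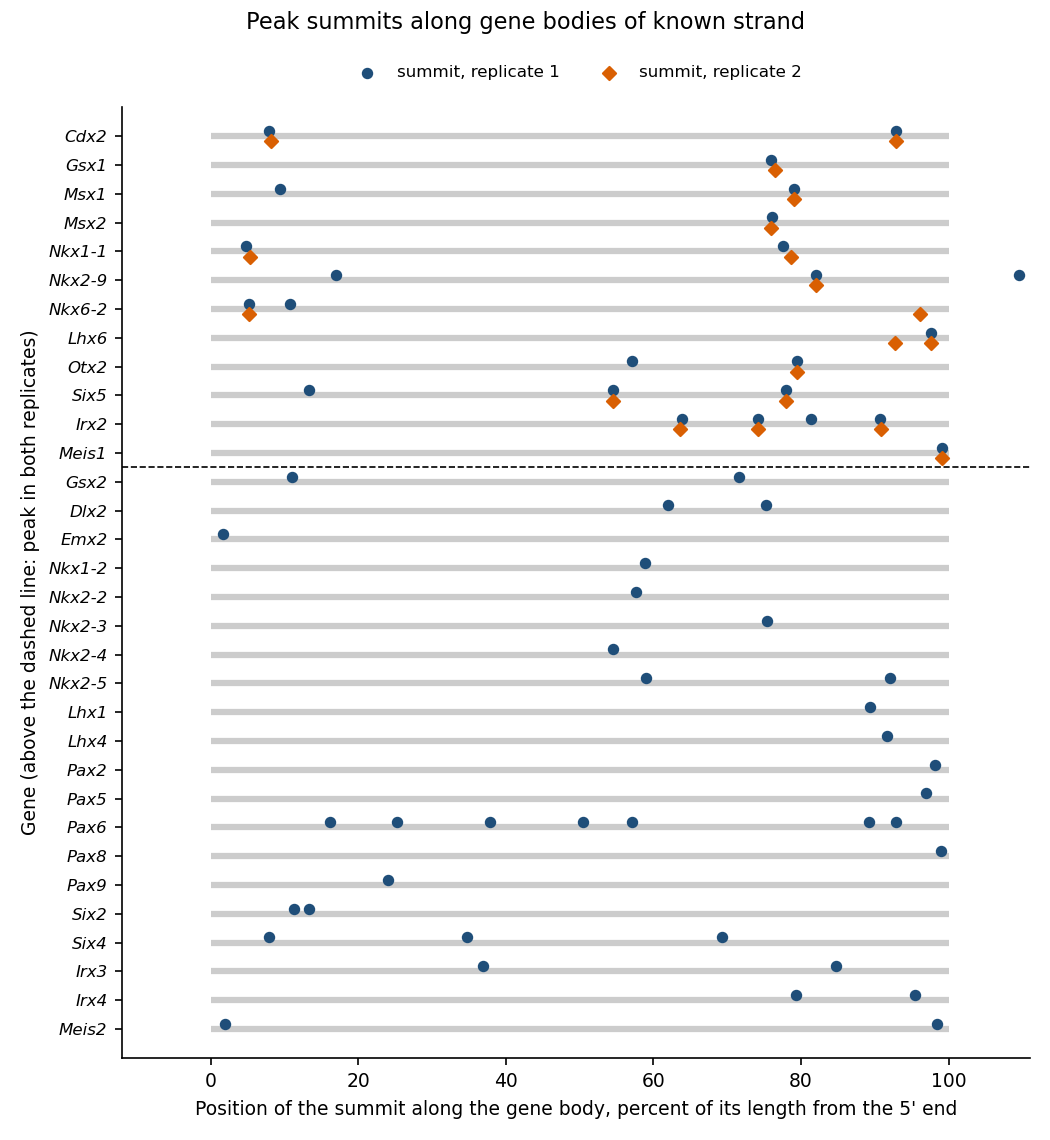
Peak summits along the gene bodies (grey bars) of the 32 homeobox genes of known strand with a peak, in percent of the gene body from its 5′ end (x axis), for replicate 1 (circles) and replicate 2 (diamonds). The 12 genes above the dashed line had a peak in both replicates, and 16 of the 19 diamonds lie past the middle of the gene. The circle beyond 100 is the summit of a Nkx2-9 peak from 56610985 to 56611389, which meets the gene body only at its 3′ end, at 56611389.

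A smaller set of peaks covered the transcription start site itself. In replicate 1 this held for 6 of the 32 genes, Gsx2, Nkx1-1, Nkx2-9, Nkx6-2, Six4 and Six5, and in replicate 2 for 2 of 12, Nkx1-1 and Nkx6-2. Over all protein-coding genes of known strand with a peak, the share was 17.7% in replicate 1, against 18.8% for the homeobox genes, and 4.51% in replicate 2, where 2 genes make up the 16.7% of the homeobox genes. At Nkx1-1 the peak of replicate 1 ran from 33433648 to 33434225 on chromosome 5, across the start site at 33434090, and was enriched 9.71-fold there and 6.83-fold in replicate 2. At Nkx6-2 the start-site peaks of both replicates had their summit on the same base, 179 bp past the start site at 139582797 on chromosome 7. The bases around these start sites are shown because both replicates had a peak across these start sites, followed by those of Gsx2, Nkx2-9, Six4 and Six5, where replicate 1 alone did. Six4 has 2 annotated start sites, both under its peak. Each runs from 100 bases before the start site to 30 bases after it on the coding strand, from RefSeq promoter windows of GRCm38.p6, and capitals mark GGAC, the core of the sequence that the m6A methyltransferase prefers.
Nkx1-1, chr5:33434061-33434190, minus strand: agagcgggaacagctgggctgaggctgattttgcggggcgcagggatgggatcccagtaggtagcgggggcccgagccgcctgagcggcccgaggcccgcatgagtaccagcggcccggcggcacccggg
Nkx6-2, chr7:139582768-139582897, minus strand: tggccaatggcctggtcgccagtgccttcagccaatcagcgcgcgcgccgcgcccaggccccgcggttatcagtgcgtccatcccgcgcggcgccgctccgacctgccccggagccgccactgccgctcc
Gsx2, chr5:75075501-75075630, plus strand: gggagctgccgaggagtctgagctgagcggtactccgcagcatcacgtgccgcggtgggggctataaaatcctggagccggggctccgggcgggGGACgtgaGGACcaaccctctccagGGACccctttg
Nkx2-9, chr12:56613255-56613384, minus strand: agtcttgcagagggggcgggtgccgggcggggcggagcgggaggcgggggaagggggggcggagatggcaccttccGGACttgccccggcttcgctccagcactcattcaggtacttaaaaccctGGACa
Six4, chr12:73113216-73113345, minus strand: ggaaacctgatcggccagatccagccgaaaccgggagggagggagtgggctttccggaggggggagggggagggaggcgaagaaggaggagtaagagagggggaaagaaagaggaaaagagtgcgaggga
Six4, chr12:73113396-73113525, minus strand: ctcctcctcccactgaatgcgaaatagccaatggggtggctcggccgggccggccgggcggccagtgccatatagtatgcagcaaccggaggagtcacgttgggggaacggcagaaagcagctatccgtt
Six5, chr7:19094444-19094573, plus strand: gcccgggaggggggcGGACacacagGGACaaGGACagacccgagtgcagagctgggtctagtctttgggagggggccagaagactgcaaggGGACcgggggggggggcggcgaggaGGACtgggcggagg

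No GGAC stood in the 130 bases shown for Nkx1-1 and Nkx6-2, nor in either window of Six4, where replicate 1 alone had the peak. In Gsx2, 2 of 3 matches began past the start site, at bases 3 and 20 counted from 1 at the start site, in Nkx2-9 1 of 2 did, at base 26, and in Six5 1 of 5 did, at base 17. Over the full windows of 300 bases, GGAC in either strand was found in 54 of 61 windows of the homeobox genes (88.5%), against 87.7% of all 32851 windows. The longer GGACT, which contains GGAC, was found in 28 of 61 (45.9%), against 45.5%. On the coding strand of the 50 transcribed bases, GGAC stood in 13 of 61 (21.3%, against 18.9%) and GGACT in 3 of 61 (4.92%, against 5.76%). These shares describe the letters in the windows and do not place an m6A site, and the sequence under the other peaks was not used here.

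Other annotated genes lay within 500 bp of 16 of the 80 replicate 1 peaks (20%, against 14.6% over all protein-coding genes) and of 8 of the 29 replicate 2 peaks (27.6%, against 14.4%). In 7 homeobox genes every replicate 1 peak had such a neighbour, among them Emx2, Msx2, Nkx2-2, Nkx2-9, Nkx6-2 and Pax2. When only peaks with no other gene within 500 bp were counted, 35 homeobox genes (51.5%, against 34.7% of all protein-coding genes) had a peak in replicate 1, 14 (20.6%, against 13.6%) in replicate 2 and 13 (19.1%, against 12.8%) in both replicates. Msx1, Msx2, Nkx2-9 and Nkx6-2 were among the 5 that left the set in both lists.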

How the data were processed

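Bowtie, SAMtools, MACS2 and the build mm10 are named, without versions, by the submitters' processing notes. The authors compared immunoprecipitated with input RNA of wild-type cells by MACS2 under default settings and deposited a separate list for each replicate. For every peak the deposited columns give the fold enrichment (a ratio to input). The authors' −log10 columns hold the p-value and the q-value. The deposited score, 10 times −log10 q cut to a whole number, was not used. The series holds 1 wild-type input sample, and the sources used here do not state that both lists were called against it. If they were, the fold enrichments of both replicates share their input.

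Peaks were joined to RefSeq gene bodies of GRCm38.p6, which is mm10, when at most 500 bp away, and to every gene in reach. Coordinates are printed from 1. An overlap of 1 bp or more made peaks shared. Strand came from RefSeq promoter windows, which held 50 of the 68 members. The join was tested on simulated positions with 0 differences from an exhaustive comparison. Members and comparison lists were chosen with earlier results of these data known, so no test was made. Some genes are counted in the totals but not reported here by name. Otherwise, genes named with values were those in both lists, the 10 others with the highest −log10 q, and the 5 with the most peaks with ties; other values, such as those of the remaining replicate 1 genes, were chosen after they were seen. Alternatives were −log10 q of at least 5, fold enrichment of at least 4, distances of 0 and 2000 bp, the nearest gene only, and a shortened replicate 1 list. Counting only peaks with no other gene, leaving out Pax, the bins of −log10 q, the position along the gene and the shares over all genes under these filters were chosen after seeing the data. Software was matplotlib 3.10.9, scipy 1.17.1, pandas 2.3.3, numpy 2.4.6 and Python 3.11.15.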

Additional observations from a re-analysis of the deposited data

How the results depend on the processing

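The main limit was the length of the lists. When replicate 1 kept only its top 5040 peaks by −log10 q, 14 homeobox genes had a peak in replicate 1 and 10 in both, and Cdx2, Dlx4, Gsx1, Lhx6, Nkx1-1, Nkx6-2 and Nkx6-3 were among those that left the set. The shared part of the peaks at these genes was then 70.0% in replicate 1 and 48.3% in replicate 2. With replicate 1 left out the count of genes was 18, and with replicate 2 left out it was 42. When 50% of both peaks had to overlap, 22.5% of the replicate 1 peaks and 62.1% of the replicate 2 peaks were shared. At a −log10 q of at least 5 the median of the highest fold enrichment in replicate 2 was 10.02, against 8.98, and Gsx1 and Otx2 were among those that left the genes in both lists. Summits within 500 bp of an end of the gene body were 21.3% in replicate 1 and 24.1% in replicate 2, and within 2000 bp 65.0% and 79.3%, against 46.3% and 58.6% within 1000 bp, which follows from the distance itself.

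At a fold enrichment of at least 4, 14 genes remained in both lists, and Gsx1, Nkx6-2 and Otx2 were among those that left. Under the distance, nearest-gene, no-other-gene and threshold alternatives, 13 to 19 genes were in both lists. At 2000 bp Pbx4 joined them, and with the nearest gene only Msx1 left. Among the counts for single families, 10 fell by over 1.5 times and 29 stayed within that range. No paired analysis was possible because only 1 group was analysed. Read depth is not known here, and its effect on the lists was not measured.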

Other observations

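Homeobox genes outside the 13 families also carried peaks. Of 66 such genes, 38 (57.6%) had a peak in replicate 1, against 61.8% of the members and 41.3% of all protein-coding genes. In both replicates 8 (12.1%) had one, against 26.5% of the members and 16.1% of all protein-coding genes. These differences were not tested. The 8 were the midbrain genes En1 and En2, Gbx1 and Gbx2, Hhex, Meox1, Pknox2 and Vax2. Mixl1, Gsc, Pdx1 and Isl1, regulators of mesendoderm, pancreas and motor neurons, were among the 30 with a peak in replicate 1 only, and were picked out after their values were seen. A further 16 genes encode cofactors of LIM-homeodomain and sine oculis proteins or Tle corepressors. Of these, 6 (37.5%) had a peak in replicate 1, against 41.3% of all protein-coding genes. In both replicates 3 (18.75%) had one, Lmo4, Eya1 and Eya3, against 16.1%, so both shares were near those of all genes. Ldb1, which bridges LIM-homeodomain proteins, had a peak in replicate 1 only.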
